A study of Homo sapiens with 8 samples.

Results

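Condensin and cohesin are ring-shaped protein complexes that shape chromosomes. The transcripts of 10 of their subunits were followed here: the condensin subunits SMC2, SMC4, NCAPD2, NCAPG, NCAPH, NCAPD3, NCAPG2 and NCAPH2, and the cohesin subunits SMC1A and RAD21. They were taken by symbol from the 27946 genes of the deposited table, with 1 transcript per gene, the one highest over the 8 libraries in FPKM, a level scaled to the exon length of the transcript and the depth of the library. All 10 were among the 13790 genes that passed the filter on low values, 0.5 FPKM or more in 2 libraries or more.

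The RNA came from EA.hy926, an immortalized human line made by fusing umbilical vein endothelial cells with lung carcinoma cells. The control group, labelled with the genotype Control, had 2 libraries. Another 3 libraries came from lines without the enhancer E2 (genotype E2 knock-out, ΔE2), and 3 from lines without SE12313-b (genotype SE12313-b knock-out, ΔSE12313-b). Both elements lie within the super-enhancer SE12313 on chromosome 16 and were removed with CRISPR/Cas9. The study chose SE12313-b as a negative control because it was inactive in reporter assays. Each ΔE2 and ΔSE12313-b library stands for 1 clonal line, so what a deletion did cannot be told apart from what single-cell cloning and expansion did in its 3 lines. The labels call every library a clone. For a growth assay, the study describes control cells that were given guide RNAs and kept beside the clones as these were derived, and whether the control RNA came from those cells, or from single clones of them, is not given in the sources used here. The question asked of these libraries was which transcripts change when either element is removed.

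The core of condensin is a pair of ATPases of the SMC family, SMC2 and SMC4. Further subunits join it in separate sets. With NCAPD2, NCAPG and NCAPH it forms condensin I, which reaches chromosomes after the nuclear envelope breaks down, and with NCAPD3, NCAPG2 and NCAPH2 it forms condensin II, which is nuclear throughout the cell cycle and starts compaction in prophase. Cohesin is built from SMC1A, SMC3, the kleisin RAD21 and a STAG protein. It folds interphase DNA into loops and holds sister chromatids together until separase cuts RAD21. Several of these genes are transcribed mainly in dividing cells, in part through the cell cycle homology region (CHR), a short promoter element that binds the MuvB complex, often next to CCAAT boxes that bind NF-Y.

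Promoters were searched because most of the members moved in the same direction in both deletions. Windows of 8 of the 10 members were searched, taken from the RefSeq promoter table (assembly GRCh38.p14). Each runs from 250 bases before to 50 after the start of a gene. The promoters of NCAPH2 and RAD21 were not searched, so the counts below leave them out. CHR-like hexamers (TTTGAA, or instead TTTAAA, or instead TTCGAA, read on both strands) were found in 6 of these 8 windows, those of SMC2, NCAPD2, NCAPG, NCAPH, NCAPD3 and NCAPG2, against 25.05% of all 35116 windows. The windows of SMC4 and SMC1A held none. CCAAT, also read on both strands, was found in 3 of 8, with 4 copies in NCAPD2, 2 in NCAPD3 and 1 in NCAPH, against 34.61% of all windows. E2F-like octamers (TTTGGCGC, TTTCGCGC, TTTCCCGC, TTTGCCGC or TTTGGCGG, both strands) were found in NCAPD3 alone, against 3.924% of all windows. No match of 1 kind overlapped a match of another kind in these windows, and a match of letters is not a bound site.

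The hexamers are given here with their flanks, since of the kinds of element searched they were found in the most windows. Their part in the changes was not tested. The stretches were read from GRCh37 on the strand of the gene, capitals mark the hexamer, and in SMC2 it lies on the opposite strand. In NCAPD2 it sits 145 to 140 bases before the annotated start, in NCAPG 35 to 30 before it, in SMC2 and NCAPD3 across the start, and in NCAPH and NCAPG2 from 33 and 36 bases after it. The start is that of the promoter table, which for these 6 genes is not the start of the transcript kept for its FPKM. Against the start of the kept transcript, the hexamer lies before it in NCAPD2 alone and after it in the other genes.
SMC2, chr9:106856575-106856604, plus strand: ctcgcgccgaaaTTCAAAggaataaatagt
NCAPD2, chr12:6603111-6603140, plus strand: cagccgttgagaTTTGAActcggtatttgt
NCAPG, chr4:17812555-17812584, plus strand: tcgcgggaattaTTTGAAcgttcgagcggt
NCAPH, chr2:97001524-97001553, plus strand: cgacgcgcgcgaTTTAAAaccagctcagga
NCAPD3, chr11:134093847-134093876, minus strand: gcgggagcgagcTTTGAAagttgagcacgg
NCAPG2, chr7:158497446-158497472, minus strand: ccggcgggtgcgTTTGAAtctggtccg

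The NCAPD2 promoter held the most elements, and the 220 bases before its annotated start are therefore given whole, with the hexamer and the 4 CCAAT boxes (ATTGG on this strand) in capitals.
NCAPD2, chr12:6603048-6603267, plus strand: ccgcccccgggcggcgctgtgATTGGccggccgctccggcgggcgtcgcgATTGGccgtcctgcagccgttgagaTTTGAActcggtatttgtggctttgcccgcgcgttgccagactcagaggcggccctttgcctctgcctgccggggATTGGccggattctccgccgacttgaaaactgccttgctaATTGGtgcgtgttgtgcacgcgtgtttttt

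Both deletions were first compared with the control cells. A gene was called when its adjusted p (limma, Benjamini-Hochberg over all 13790 genes) was under 0.05 and its change at least 2-fold on the scale of log2(FPKM + 0.1). In ΔE2, 8 of the 10 members were called higher, all 8 condensin subunits, where 11.2% of all genes tested were. In ΔSE12313-b, 9 of 10 were called higher, the condensin subunits and SMC1A, where 14.7% of all genes were. All 10 had an adjusted p under 0.05 in the direction of a rise in each deletion, against 34.7% of genes in ΔE2 and 43.0% in ΔSE12313-b. Every clone lay above both controls for all 10 members in each deletion, which was also so for 44.8% of all genes tested in ΔE2 and 51.6% in ΔSE12313-b. The median log2 change over the 10 members was 2.31 (ΔE2) and 2.14 (ΔSE12313-b), and over all genes tested 0.141 and 0.273. Both comparisons use the same 2 control libraries, so their values are given side by side and are not independent. In bulk RNA, a larger share of dividing cells and more RNA per cell cannot be told apart. In its own assays, the study found slower proliferation and fewer cells in S phase in clones of both deletions than in control cells.

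The largest changes were those of NCAPG and NCAPH, the HEAT-repeat subunit and the kleisin that belong to condensin I only. NCAPG was at 0.566 and 0.473 FPKM in the controls, or 34 and 27 reads. It was at 27.7, 22.2 and 30.1 FPKM in ΔE2, and at 21.4, 21.5 and 17.8 FPKM in ΔSE12313-b. The groups lay far apart: the lowest ΔE2 clone was 39.3 times and the lowest ΔSE12313-b clone 31.4 times the higher control. The log2 change was 5.43 (SE 0.152, limma adjusted p = 2.72e-07) in ΔE2 and 5.03 (SE 0.152, limma adjusted p = 3.63e-07) in ΔSE12313-b. This scale understates the change of a gene so low, as the ratio of the mean FPKM was 51.3 and 38.9. LCORL overlaps NCAPG on the opposite strand, and the handling of strands in the table is not given in the sources used here.

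NCAPH closes the ring of condensin I by bridging the heads of SMC2 and SMC4. Its controls were at 0.302 and 0.221 FPKM, or 23 and 16 reads. The ΔE2 clones were at 10.8, 9.10 and 10.6 FPKM and the ΔSE12313-b clones at 10.8, 10.0 and 9.58 FPKM, so the deletions covered the same range, well clear of the controls. The log2 change was 4.83 in both (SE 0.134, limma adjusted p = 2.72e-07 and 2.81e-07), and the mean FPKM was 38.8 times (ΔE2) and 38.7 times (ΔSE12313-b) that of the controls. In the controls these were the lowest members, with mean levels above those of 5.66% (NCAPG) and 2.70% (NCAPH) of the genes tested. Neither reached 0.5 FPKM in both controls, so each passed the filter only through the clones. The genes tested were those that passed over all groups, so these shares hold for that set only. In the clones NCAPG stood above 83.9% (ΔE2) and 76.9% (ΔSE12313-b) of genes, and NCAPH above 61.0% and 58.4%.

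NCAPD2, the other HEAT-repeat subunit of condensin I, was much higher in the controls and moved much less. It was at 13.4 and 12.9 FPKM in the controls, at 51.1, 44.6 and 56.3 FPKM in ΔE2, and at 76.0, 67.7 and 57.4 FPKM in ΔSE12313-b. The 3 groups did not overlap. In log2 terms it rose by 1.93 (SE 0.135, limma adjusted p = 1.91e-05) in ΔE2 and 2.33 (SE 0.135, limma adjusted p = 5.68e-06) in ΔSE12313-b. The gene lies on the short arm of chromosome 12 (6603298 to 6641132, plus strand, GRCh37), and the small nuclear RNA gene SCARNA10 lies within it on the same strand.

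SMC2 and SMC4 serve both condensins. SMC2 was at 5.03 and 5.15 FPKM in the controls, at 22.9, 20.3 and 24.9 FPKM in ΔE2 and at 20.2, 20.8 and 18.9 FPKM in ΔSE12313-b. Its clones thus sat about 4 times above the controls in both deletions (log2 2.13, SE 0.098, limma adjusted p = 2.08e-06, and 1.95, SE 0.098, limma adjusted p = 2.94e-06). SMC4 was at 7.57 and 7.89 FPKM in the controls, at 45.5, 38.8 and 48.5 FPKM in ΔE2, and at 54.7, 53.6 and 44.9 FPKM in ΔSE12313-b. Its change was larger than that of its partner in both deletions, at 2.497 (SE 0.121, limma adjusted p = 2.62e-06) and 2.70 (SE 0.121, limma adjusted p = 1.6e-06). SMC4 overlaps TRIM59-IFT80 on the opposite strand and holds MIR15B and MIR16-2 on its own, and how the table treated strands is not given in the sources used here.

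Among the subunits of condensin II, NCAPG2 had the largest and most alike changes. It was at 4.56 and 4.22 FPKM in the controls, at 35.6, 31.7 and 36.3 FPKM in ΔE2, and at 34.6, 33.9 and 30.6 FPKM in ΔSE12313-b. The clones of the deletions overlapped, all between 6.71 and 8.60 times the controls. In log2 terms the rise was 2.95 (SE 0.092, limma adjusted p = 3.87e-07) and 2.88 (SE 0.092, limma adjusted p = 3.98e-07).

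NCAPH2, the kleisin of condensin II, had the smallest change among the condensin subunits of ΔE2. It was at 4.12 and 4.16 FPKM in the controls (74 and 71 reads), at 12.1, 10.5 and 13.3 FPKM in ΔE2, and at 15.2, 12.7 and 12.8 FPKM in ΔSE12313-b. The clones of the deletions overlapped and were all above the controls. Its log2 change was 1.51 (SE 0.125, limma adjusted p = 4.61e-05) in ΔE2 and 1.68 (SE 0.125, limma adjusted p = 2.06e-05) in ΔSE12313-b.

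NCAPD3 is the HEAT-repeat subunit of condensin II that has the place of NCAPD2 in condensin I. It was at 4.61 and 4.67 FPKM in the controls, at 29.9, 24.3 and 32.1 FPKM in ΔE2, and at 12.4, 12.8 and 10.2 FPKM in ΔSE12313-b. The 3 groups were fully apart, with ΔSE12313-b in between. It rose by a log2 of 2.60 (SE 0.142, limma adjusted p = 5.08e-06) in ΔE2 and 1.32 (SE 0.142, limma adjusted p = 0.000134) in ΔSE12313-b, where it was the smallest among the condensin subunits.

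Both cohesin subunits moved by about 2-fold, from unlike levels. In the controls RAD21 stood above 94.05% of the genes tested and SMC1A above 57.61%. RAD21 was at 49.7 and 50.4 FPKM in the controls, at 91.0, 93.8 and 102 FPKM in ΔE2, and at 103, 97.0 and 96.6 FPKM in ΔSE12313-b. All 6 clones lay above the controls and within 1.81 and 2.07 times their levels. The log2 change was 0.93 (95% interval 0.764 to 1.10, limma adjusted p = 3.44e-05) in ΔE2 and 0.98 (0.812 to 1.15, limma adjusted p = 2.06e-05) in ΔSE12313-b, 1.91-fold and 1.97-fold, and neither was called. RAD21-AS1 overlaps it on the opposite strand.

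SMC1A, which sits on the X chromosome and pairs with SMC3, was at 7.99 and 7.63 FPKM in the controls, at 16.4, 14.3 and 16.4 FPKM in ΔE2, and at 16.2, 15.0 and 16.2 FPKM in ΔSE12313-b. The deletions covered nearly 1 range. The log2 change was 0.996 in ΔE2 (95% interval 0.79 to 1.20, limma adjusted p = 6.78e-05) and 1.01 in ΔSE12313-b (0.802 to 1.21, limma adjusted p = 4.96e-05). Only the latter passed the 2-fold threshold, at 2.01-fold against 1.99-fold, which is no difference between the deletions, and the call was lost in 8 of 19 other ways of processing the values. With each library centred on the median of all genes, which moved the median change of all genes from 0.141 and 0.273 to −0.017 and −0.015, the changes of SMC1A were 0.84 and 0.72 and those of RAD21 0.77 and 0.69.

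**Figure D1:**
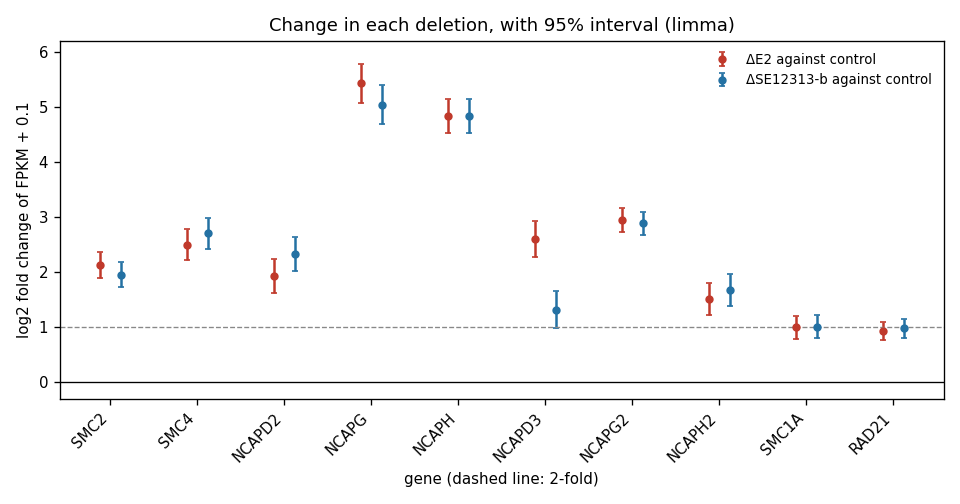
Log2 fold change of FPKM + 0.1 against the controls for each subunit in ΔE2 (3 clones) and ΔSE12313-b (3 clones), with 95% intervals from limma and a dashed line at 2-fold. NCAPG and NCAPH lie near 5, the other condensin subunits between 1.32 and 2.95, and the cohesin subunits SMC1A and RAD21 at about 1.

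The order of the levels differed between the control cells and the clones. In the controls the mean FPKM fell from RAD21 (50.03 ± 0.465, SD, n = 2) through NCAPD2 (13.1 ± 0.354) to SMC1A (7.81 ± 0.258) and SMC4 (7.73 ± 0.223), whose ranges overlapped. It then fell through SMC2 (5.09 ± 0.087), NCAPD3 (4.64 ± 0.043), NCAPG2 (4.39 ± 0.238) and NCAPH2 (4.14 ± 0.028), which lay close together without overlap of their 2 libraries, to NCAPG and NCAPH. In ΔE2 the order was RAD21 (95.7 ± 5.79, n = 3), NCAPD2 (50.7 ± 5.84), SMC4 (44.3 ± 4.99), NCAPG2 (34.5 ± 2.49), NCAPD3 (28.8 ± 4.03), NCAPG (26.7 ± 4.02), SMC2 (22.7 ± 2.30), SMC1A (15.7 ± 1.23), NCAPH2 (12.01 ± 1.41) and NCAPH (10.2 ± 0.915). Of these neighbours, NCAPD2 and SMC4, NCAPG2 and NCAPD3, NCAPD3 and NCAPG, NCAPG and SMC2, and NCAPH2 and NCAPH had overlapping clones. In ΔSE12313-b it was RAD21 (98.8 ± 3.60), NCAPD2 (67.0 ± 9.36), SMC4 (51.1 ± 5.34), NCAPG2 (33.0 ± 2.14), NCAPG (20.2 ± 2.14), SMC2 (19.98 ± 0.973), SMC1A (15.8 ± 0.673), NCAPH2 (13.6 ± 1.45), NCAPD3 (11.8 ± 1.42) and NCAPH (10.1 ± 0.624). There NCAPG overlapped SMC2, and each of the last 4 overlapped the next. NCAPD3 thus had rank 5 among the members in ΔE2 and rank 9 in ΔSE12313-b.

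Ratios between the paired subunits of condensin I and condensin II, taken within each library on the FPKM scale, show how unequal the changes were. They use the same values as the tests above and are given without a test. The ratio of the kleisins, NCAPH to NCAPH2, was 0.0733 and 0.0531 in the controls, 0.889, 0.864 and 0.791 in ΔE2, and 0.710, 0.791 and 0.7498 in ΔSE12313-b. The kleisin transcript of condensin I was therefore a small fraction of its counterpart in the control cells and close to it in all 6 clones. Protein was not measured. For NCAPG to NCAPG2 the ratio was 0.124 and 0.112 in the controls, 0.777, 0.702 and 0.830 in ΔE2, and 0.620, 0.635 and 0.581 in ΔSE12313-b, the same shift with the deletions apart.

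The pair of NCAPD2 and NCAPD3 did not follow them. Its ratio was 2.90 and 2.76 in the controls, 1.71, 1.84 and 1.75 in ΔE2, and 6.13, 5.28 and 5.64 in ΔSE12313-b. It was below the controls in every ΔE2 clone and above them in every ΔSE12313-b clone. The ratio of SMC2 to SMC4 was lower in the clones, from 0.659 ± 0.008 (SD, n = 2) in the controls to 0.513 ± 0.010 (n = 3) in ΔE2 and 0.393 ± 0.026 (n = 3) in ΔSE12313-b. RAD21 to SMC1A was 6.41 ± 0.272, 6.11 ± 0.511 and 6.26 ± 0.257, with overlapping ranges.

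The deletions were then compared with each other, in the same model. NCAPD3 was the 1 member of 10 called, where 4.23% of all genes were called in either direction. It was 2.42-fold higher in ΔE2 (log2 1.28, SE 0.127, 95% interval 0.983 to 1.57, limma adjusted p = 0.000842), with the lowest ΔE2 clone at 24.3 FPKM and the highest ΔSE12313-b clone at 12.8 FPKM. At an adjusted p under 0.05 and any size there were 2 of 10, against 26.0% of all genes, the second being NCAPD2, which was lower in ΔE2 (log2 −0.40, 95% interval −0.679 to −0.121, limma adjusted p = 0.0441). The difference in NCAPD2 was less steady than that in NCAPD3: it kept an adjusted p under 0.05 in 6 of 19 other ways of processing the values, with −0.27 (limma adjusted p = 0.149) when each library was centred and a range of −0.51 to −0.24 (limma adjusted p from 0.0186 to 0.211) over all 19. The clones of the deletions did not overlap for 3 members, NCAPD3, NCAPD2 and NCAPG, where 40.8% of all genes tested had no overlap.

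For the other members the intervals bound the difference without showing that there was none. NCAPG was 0.39 higher in ΔE2 on the log2 scale (95% interval 0.077 to 0.706, limma adjusted p = 0.0698), and the clones did not overlap, with 22.2 FPKM as the lowest in ΔE2 and 21.5 as the highest in ΔSE12313-b. The intervals for SMC2 (−0.025 to 0.382), SMC4 (−0.456 to 0.043), NCAPH (−0.277 to 0.278), NCAPG2 (−0.126 to 0.256), NCAPH2 (−0.432 to 0.084), SMC1A (−0.196 to 0.172) and RAD21 (−0.199 to 0.102) all held 0 and left out a 1.5-fold change in either direction. Their limma adjusted p ran from 0.175 to 0.999. The median of the 10 members was −0.006, and that of all genes −0.111.

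**Figure D2:**
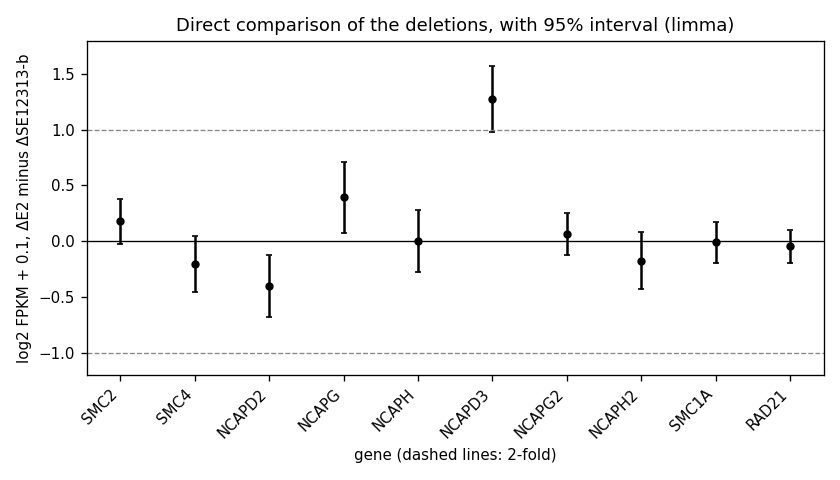
Log2 FPKM + 0.1 of ΔE2 (3 clones) minus ΔSE12313-b (3 clones) for each subunit, with 95% intervals from limma and dashed lines at 2-fold in either direction. NCAPD3 alone lies past the 2-fold line, at 1.28, and NCAPD2 lies on the other side of 0, at −0.40.

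The chromosome arms of both genes moved in the same direction as the genes. NCAPD3 lies near the end of the long arm of chromosome 11 (134022337 to 134094426, minus strand, GRCh37). The 546 genes tested on that arm had a median of 0.28 between ΔE2 and ΔSE12313-b, where all genes had −0.111, and NCAPD3 stood 1.00 above its arm. The 12 genes tested within 5 Mb of it had a median of 0.82 and ran from −0.03 to 1.301, and 1 of them was above NCAPD3. Against the controls these neighbours had medians of 0.61 in ΔE2 and −0.04 in ΔSE12313-b, and none reached the change of NCAPD3. For NCAPD2 the 183 genes of the short arm of chromosome 12 had a median of −0.38, and the gene was −0.02 from it. The 88 genes tested within 5 Mb of NCAPD2 had a median of −0.54, and 32 of them were above it. The part of the arms in these differences was not tested. NCAPD3 and NCAPD2 each stood at least 1.34 above the median of their arms against the controls.

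Clones of 1 deletion differed in a shared way. In ΔE2, replicate 2 was the lowest clone for 9 of the 10 members (all but RAD21), as it was for 38.8% of all genes tested, and replicate 3 the highest for 9 (all but NCAPH), as for 40.8% of genes. In ΔSE12313-b, replicate 3 was the lowest for 8 members (39.6% of genes) and replicate 1 the highest for 7 (33.3%). The spread itself was small beside the changes, with a coefficient of variation over the 3 clones from 6.05% (RAD21) to 15.1% (NCAPG) in ΔE2 and from 3.64% (RAD21) to 14.0% (NCAPD2) in ΔSE12313-b. Leaving out any 1 library changed no call of a condensin subunit against the controls.

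A list of 37 related genes was then followed, of which 35 were tested. ESCO2, DSCC1, SGO1 and MKI67 were under 0.5 FPKM in at least 1 control and passed the filter only through the clones. In ΔE2, 12 of these 35 were called higher, where 11.2% of all genes were, and 1 lower, where 8.36% were. In ΔSE12313-b, 13 were called higher, where 14.7% of all genes were, and 1 lower, where 7.83% were. None was called between the deletions, and 8 had an adjusted p under 0.05 there, where 26.0% of all genes did. The list had a median log2 change of 0.54 (ΔE2) and 0.49 (ΔSE12313-b). The roles hold 2 to 7 tested genes each and were not compared with each other.

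Of the other core and accessory subunits of cohesin (SMC3, STAG1, STAG2, PDS5A and PDS5B), none of 5 was called in ΔE2 and 1 of 5 in ΔSE12313-b. That was SMC3, the partner of SMC1A, at 17.2 and 18.5 FPKM in the controls, 31.3, 25.9 and 26.8 FPKM in ΔE2, and 40.2, 40.1 and 42.2 FPKM in ΔSE12313-b. The 3 groups did not overlap, with ΔSE12313-b the highest. Its log2 change was 0.64 in ΔE2 (limma adjusted p = 0.00081) and 1.19 in ΔSE12313-b (limma adjusted p = 2.78e-05), and between the deletions −0.55 (limma adjusted p = 0.00331, short of 2-fold). The 407 genes tested on its arm, the long arm of chromosome 10, had medians of 0.18, 0.75 and −0.46 in the same comparisons, and the part of the arm was not tested. STAG1, the smallest change of the group, stood at 0.13 and 0.40. The loaders NIPBL and MAU2 and the release factor WAPL ran from −0.44 to 0.31, with none called.

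The genes that establish cohesion during DNA replication were divided. ESCO2, the acetyltransferase that locks cohesin on replicated DNA, rose from 2 and 1 reads in the controls to 6.83 ± 1.20 FPKM in ΔE2 (SD, n = 3) and 6.76 ± 0.530 FPKM in ΔSE12313-b. Counted against 3 reads in each control library, a floor set in advance that is not a limit from counting error, that is 94.3-fold and 93.3-fold higher. With 0.1 FPKM added to each value, the fit gave 50.6-fold and 50.5-fold (limma adjusted p = 3.43e-07 and 3.63e-07). CDCA5, which encodes the cohesion protector sororin, rose by 4.48 and 4.26 on the log2 scale (limma adjusted p = 2.62e-07 and 2.64e-07). DSCC1 (3.30 and 3.50, limma adjusted p = 3.24e-06 and 2.19e-06) and CHTF18 (1.38 and 1.85, limma adjusted p = 0.000223 and 3.92e-05), of the clamp loader used in cohesion, rose as well. Their partner CHTF8 was at 0.35 and 0.26, ESCO1, the acetyltransferase that also acts outside S phase, at −0.07 and −0.18, and the deacetylase HDAC8 at 0.10 and −0.81, none of them called.

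All 4 genes of the protection and cleavage of cohesin in mitosis were called higher in both deletions. The shugoshins SGO1 (4.18 in both) and SGO2 (3.59 and 3.49), which guard centromeric cohesin, ESPL1 (3.52 and 3.56), the separase that cuts RAD21, and PTTG1 (2.41 in both), the securin that restrains it, had limma adjusted p from 3.87e-07 to 5.27e-05. Among genes of chromosome structure, TOP2A, the topoisomerase that works with condensin in mitosis, was at 3.13 ± 0.192 FPKM in the controls, 77.3 ± 8.93 FPKM in ΔE2 and 70.3 ± 5.01 FPKM in ΔSE12313-b (log2 4.58 and 4.45, limma adjusted p = 2.05e-07 and 2.08e-07). The chromokinesin KIF4A rose by 4.33 and 4.05 (limma adjusted p = 3.59e-05 and 3.85e-05). TOP2B, which acts outside mitosis, was at 0.49 and 0.73, CTCF, the factor that stops loop growth by cohesin, at 0.58 and 0.42, MCPH1, which restrains condensin II, at 0.14 and 0.10, and SMCHD1, a distant relative of the SMC proteins, at 0.09 and 0.01, none of them called.

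The SMC5/6 complex, the remaining SMC complex, which serves in DNA repair, had 0 of 7 genes called in either deletion, with changes from −0.70 (EID3, ΔE2) to 0.78 (NSMCE4A, ΔSE12313-b). SMC5 was at 5.82 ± 0.214 FPKM in the controls, 8.53 ± 0.289 FPKM in ΔE2 and 5.56 ± 0.260 FPKM in ΔSE12313-b. It differed between the deletions by 0.61 (limma adjusted p = 0.00163), short of 2-fold. Of the 4 meiotic subunits, SMC1B and STAG3 did not pass the filter. REC8, the meiotic kleisin, fell from 1.998 and 1.69 FPKM in the controls to between 0.237 and 0.532 FPKM in ΔE2 and between 0.057 and 0.253 FPKM in ΔSE12313-b (log2 −2.15 and −2.95, limma adjusted p = 0.00465 and 0.000797), on 2 to 16 reads per clone. Its relative RAD21L1 rose from 0.879 and 0.971 FPKM to between 4.03 and 4.26 FPKM in ΔE2 and between 1.87 and 2.64 FPKM in ΔSE12313-b (log2 2.04 and 1.11, limma adjusted p = 4.64e-05 and 0.000804).

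The RNA of growth markers moved with that of the members, while the growth assay of the study found slower proliferation of the clones. MKI67, the proliferation antigen, was at 0.502 ± 0.103 FPKM in the controls, 22.5 ± 5.35 FPKM in ΔE2 and 28.7 ± 4.28 FPKM in ΔSE12313-b (log2 5.21 and 5.58, limma adjusted p = 1.44e-06 and 1.01e-06). It is also among the related genes counted above as called higher, under chromosome structure. CDK1, the kinase that drives entry into mitosis, was at 2.85 ± 0.162, 47.9 ± 5.93 and 62.6 ± 2.74 FPKM (log2 4.02 and 4.41, limma adjusted p = 2.69e-07 and 1.77e-07). Between ΔE2 and ΔSE12313-b, MKI67 stood at −0.37 (95% interval −0.835 to 0.091, limma adjusted p = 0.211) and CDK1 at −0.39 (limma adjusted p = 0.0211). CDK1 lies on the long arm of chromosome 10 as SMC3 does, and was 0.07 from the median of −0.46 of that arm. The part of growth in the changes of the members was not tested.

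The genes whose pattern over the 8 libraries was most like that of the members, by Pearson's r of log2(FPKM + 0.1) with the mean of each set, were SGO1 (0.9999), RAD54L (0.9999) and ORC1 (0.9997) for NCAPD2, NCAPG and NCAPH. For NCAPD3, NCAPG2 and NCAPH2 they were CENPN (0.9997), DDX39A (0.9994) and CCNA2 (0.9986), and for SMC1A and RAD21 they were ENO1 (0.9997), MCM3 (0.9994) and MCM2 (0.9994). These values describe 8 libraries that fall into controls and clones, and that step alone gives high values: of 13780 other genes, 2637, 2091 and 2669 had an r above 0.9 with the 3 sets.

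The libraries held between 12067557 and 19101150 reads. The share of reads on genes was 64.2% to 64.7% in the controls, 70.0% to 73.3% in ΔE2 and 75.3% to 78.4% in ΔSE12313-b, so it moved with the groups, and its part in the results was not tested. The 2 control libraries differed little beyond counting noise (chi-square per degree of freedom 1.19 over 12856 genes), and the clones of a deletion far more (4.00 to 22.9). ADAMTS18, a gene near both deletions, was at 0.771 ± 0.125 FPKM in the controls, 0.123 ± 0.032 FPKM in ΔE2 and 0.170 ± 0.055 FPKM in ΔSE12313-b (limma adjusted p = 0.00453 and 0.00777). Of 8 endothelial markers 7 had a mean of at least 0.5 FPKM in each group, the exception being KDR, and they summed to 371.1 to 373.7 FPKM in the controls, 559.9 to 713.7 FPKM in ΔE2 and 537.3 to 718.3 FPKM in ΔSE12313-b. ICAM2 alone was at 34.5 and 37.8 FPKM in the controls and at 210 to 263 FPKM in the clones, while VWF was at 1.83 and 2.02 FPKM in the controls and at 0.346 to 0.831 FPKM in the clones. Without ICAM2 the sums were 335.9 to 336.6, 325.6 to 468.7 and 326.8 to 462.8 FPKM. Of 5 epithelial markers KRT8 and KRT18 were expressed in every group and CDH1 was at 0 throughout (sums of 232.0 to 238.7, 612.7 to 752.0 and 540.8 to 668.6 FPKM). No fibroblast, leukocyte or erythroid marker reached 0.5 FPKM.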

How the data were processed

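Total RNA was depleted of ribosomal RNA, and stranded libraries were sequenced as single-end reads. The authors trimmed reads with Trim Galore 0.4.4, mapped them to GRCh37 with STAR 2.5.4b, per the labels, and deposited 1 table of FPKM with 65572 RefSeq transcripts. The counter, the RefSeq release and the handling of strands and of reads with several hits for this table are not given in the sources used here. The authors' own calls came from featureCounts and edgeR counts, which were not used here.

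For each gene 1 transcript was used, chosen by its mean over the 8 libraries. Log2(FPKM + 0.1) of genes at 0.5 FPKM or more in 2 libraries was fitted with limma 3.58.1 (R 4.3.3; all 3 groups in 1 model, variance trend, two-sided), with Benjamini-Hochberg adjustment over 13790 genes. FPKM times transcript length fell on whole multiples of 1 step in each library, within 0.1 read, which gave the reads behind each value. Nothing in the labels names separate cultures for the 2 controls, so p values may reflect technical spread there. On simulated data for ΔE2 against control with 13681 genes, 99 of 100 genes changed 4-fold were recovered, 88 of 100 changed 2-fold passed the adjusted p, and 18 others were called. The simulation gave all genes and libraries the same spread, whereas the clones here differed far more than the controls. Its changed genes were drawn from those with more reads, so these rates do not describe genes with few reads. Promoter windows were matched from GRCh38.p14 to GRCh37 by their sequence. Chromosome arms came from all tested genes by position.

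The members and lists were chosen with earlier results of these data known. Every member is named. Related genes are named when called, or when they had the largest or smallest change of their role, and others were named after their values were seen, as were the genes within 5 Mb. Alternatives were 2 other pseudocounts, 2 other filters, centring, quantile normalization, the longest transcript, voom on recovered reads, a replicate block and each library left out. A fit without the variance trend and a fit of only the groups compared complete the 19 used for single members. Other thresholds were used for the counts of calls only.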

Additional observations from a re-analysis of the deposited data

Results flagged for a closer look

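NCAPD3 was the 1 member that differed at least 2-fold between the deletions in the direct test, in which NCAPD2 had an adjusted p under 0.05 at a smaller size. The difference, ΔE2 minus ΔSE12313-b, was 1.28 on the log2 scale (limma adjusted p = 0.000842), with 3 of 3 ΔE2 clones above 3 of 3 ΔSE12313-b clones. It was kept under all 19 alternatives, at 1.17 to 1.41 with an adjusted p from 0.000124 to 0.00821. The 12 genes tested within 5 Mb had a median of 0.82 in the same comparison.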

How the results depend on the processing

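Every call of a condensin subunit against the controls was kept under all 19 alternatives. SMC1A was decided by its closeness to 2-fold. In ΔSE12313-b its call was lost with a pseudocount of 1 (0.93), centring (0.72), quantile normalization (0.67), voom (0.73), the replicate block (0.98) and without control replicate 2 (0.97), ΔSE12313-b replicate 1 (0.99) or ΔSE12313-b replicate 3 (0.99). In ΔE2 it was gained with a pseudocount of 0.01 (1.00) and without control replicate 1 (1.03) or ΔE2 replicate 2 (1.06). RAD21 stayed under 2-fold, at 0.58 to 0.97 in ΔE2 and 0.49 to 1.00 in ΔSE12313-b.

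The count of related genes called higher in ΔSE12313-b, 13, was 11 with centring and with voom. It was 12 with quantile normalization, with a pseudocount of 1 and without ΔSE12313-b replicate 2, and 16 with a 1.5-fold threshold. In ΔE2 it stayed at 12, save for 15 with a 1.5-fold threshold. The count of related genes called lower was 0 with a mean FPKM of at least 1 in either deletion, since REC8 was then not tested, and in ΔSE12313-b it was 2 with centring, quantile normalization and voom and 1 to 2 with 1 library left out. Between the deletions 2 related genes were called with centring, voom or a 1.5-fold threshold, and 0 to 1 with 1 library left out. The cause was not tested. Members near 0 between the deletions changed sign without a call: NCAPH with the longest transcript (0.00) and with 1 library left out (−0.05 to −0.01), SMC1A with centring (0.12), quantile normalization (0.11), voom (0.11) and 1 library left out (0.01 to 0.05), and RAD21 with centring (0.08), quantile normalization (0.09) and voom (0.07).

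Centring turned the calls of all genes for ΔE2 from 57.2% higher to 44.4%, and those for ΔSE12313-b from 65.3% to 43.3%. Same-numbered samples did not deviate together (r from −0.08 to 0.107 over genes), so the replicate numbers were not taken to pair them. The replicate block changed no call of a member other than that of SMC1A. Between the deletions, the adjusted p of NCAPD2 ran from 0.0186 to 0.211, that of NCAPG from 0.0115 to 0.2 and that of SMC2 from 0.0247 to 0.423.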
